A study of Mus musculus with 12 samples.

Results

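The genes of the proteasome were taken from a table of H3K27ac, a histone acetylation found at active promoters and enhancers, measured by chromatin immunoprecipitation and sequencing (ChIP-seq) in mouse microglia. Every gene name beginning with Psm, a letter from a to g and a number was a member, and this matched 42 of 16092 gene names and 119 of 67822 windows of 1000 bp. One match, Psmc3ip, is a cofactor of meiotic recombination and no proteasome subunit, so 41 genes remained once it was set aside. Of the 119 windows 40 were annotated as promoters, out of 13206 in the table, and they belonged to 35 of the 42 genes. A total of 40 genes had a window centred within 1 kb of the start site given in the table's annotation, and 67 windows lay farther away. The farther ones include windows over RefSeq starts of Psmc1 and Psmc2 other than the starts used for the distances.

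The proteasome degrades ubiquitin-tagged proteins. Its core particle is a barrel of alpha rings, encoded by Psma genes, around beta rings, encoded by Psmb genes, in which Psmb5, Psmb6 and Psmb7 carry the proteolytic activity. A regulatory cap binds the core. Its ATPases, the Psmc genes, unfold substrates, and its non-ATPase subunits, the Psmd genes, bind and trim ubiquitin. In cells exposed to interferon, and in many immune cells, Psmb8, Psmb9 and Psmb10 replace the constitutive catalytic subunits to form the immunoproteasome, and Psme1 and Psme2 form the PA28 activator. This form is known for producing peptides for MHC class I and is described in activated microglia.

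The cells were CD11b+ microglia isolated with magnetic beads from the forebrain of wild-type mice (WT, C57BL/6N background) and of Cias1-knockout mice, named Nlrp3-/- (KO), which lack the inflammasome sensor NLRP3. No treatment, age or disease model is given in the labels. Each genotype had 3 H3K27ac libraries and 3 input libraries, 12 in all. The labels do not say whether replicates came from separate animals, so the p-values measure the spread between these libraries, part or most of which may be technical. WT replicate 1 had 0 tags at Y-linked promoters in both ChIP and input, while the other 5 H3K27ac libraries had 183 to 239. Its material thus came from elsewhere than that of WT replicates 2 and 3, so the WT spread is not technical alone. All 3 KO libraries had Y-linked tags, so the genotypes are unbalanced in Y-linked signal. Values without WT replicate 1 are given where that changes a direction.

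H3K27ac libraries held 3726550 to 5028129 tags, with 39.1% to 46.1% of them in windows, and input libraries held 3287009 to 6961590, with 8.31% to 9.32% in windows. At the targeted gene, the window over the promoter of the Nlrp3 transcript NM_145827 had 180, 180 and 195 tags in WT replicates 1 to 3 and 1, 0 and 16 in KO, a log2 fold change of -5.19 (edgeR quasi-likelihood test, Benjamini-Hochberg adjusted p = 4.9e-06). Promoters of 10 microglia markers had median levels of 9.08 (WT) and 13.8 (KO) relative to input, with P2ry12 at 26.7 and 31.7 times. The 1 astrocyte marker with a promoter window, Aldh1l1, stood at 0.989 times in WT. Oligodendrocyte markers (2 promoters) had a WT median of 4.65 times, with Mbp at 1.75 and Cnp at 7.55. Endothelial and mural markers (2 promoters) had a WT median of 2.52 times. None of the neuron, monocyte, neutrophil or lymphocyte markers listed had a promoter window. That is no evidence that such cells were absent, since windows within 100 kb of some of these genes held H3K27ac tags. In WT, Ly6c2 had 179, 235 and 165 tags, Snap25 18, 19 and 15, and S100a9 0, 1 and 2. On the first principal component, which held 31.2% of the variance, WT replicate 3 stood apart from the other H3K27ac libraries, and KO replicate 3 did so on the second (23.2%). In bulk chromatin, fewer cells carrying the mark and less mark per cell cannot be told apart.

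Sequences upstream of the start sites are printed for 2 sets of members. The first is the catalytic pairs, in which a constitutive gene and its inducible counterpart encode the same position of the beta ring. Psmb6 encodes the caspase-like subunit, Psmb7 the trypsin-like one and Psmb5 the chymotrypsin-like one. Psmb9, Psmb10 and Psmb8, in that order, take their positions, which need not mean the same activity. The sequences are the RefSeq promoters of GRCm38.p6, read 5′ to 3′ on the gene's strand over the 150 bases that end just before the start site. Capitals mark matches to any of 5 motifs searched on both strands: TGACNNNGC (the core of the antioxidant response element bound by NFE2L1 and NFE2L2), CCAAT (the NF-Y box), CCGGAAG (an ETS site), GAAANNGAA (a short interferon-stimulated element) and TTCNNNGAA (a STAT site). Positions count back from the start site. For Psmb9 the printed stretch is the 225 bases that lie between its start and the start of Tap1, the peptide transporter gene on the opposite strand. The stretches lie at chr11:70525207-70525356, plus strand (Psmb6); chr17:34187331-34187555, minus strand (Psmb9); chr14:54617996-54618145, minus strand (Psmb5); chr17:34198045-34198194, plus strand (Psmb8); and chr8:105938393-105938542, minus strand (Psmb10). Psmb7 had no entry.
Psmb6: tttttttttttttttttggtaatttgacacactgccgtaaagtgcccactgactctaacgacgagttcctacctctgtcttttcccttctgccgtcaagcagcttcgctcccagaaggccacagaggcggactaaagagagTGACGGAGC
Psmb9: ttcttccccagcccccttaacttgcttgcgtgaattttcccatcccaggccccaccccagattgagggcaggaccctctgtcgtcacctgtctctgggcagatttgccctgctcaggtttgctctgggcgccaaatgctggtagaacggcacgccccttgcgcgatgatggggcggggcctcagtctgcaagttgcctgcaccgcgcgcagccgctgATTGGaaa
Psmb5: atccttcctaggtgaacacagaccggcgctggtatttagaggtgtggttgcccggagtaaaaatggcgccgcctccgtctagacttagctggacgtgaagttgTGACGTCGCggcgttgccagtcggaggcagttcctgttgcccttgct
Psmb8: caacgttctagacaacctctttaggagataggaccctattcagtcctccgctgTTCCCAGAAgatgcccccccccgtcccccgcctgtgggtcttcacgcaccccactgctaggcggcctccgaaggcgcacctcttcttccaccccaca
Psmb10: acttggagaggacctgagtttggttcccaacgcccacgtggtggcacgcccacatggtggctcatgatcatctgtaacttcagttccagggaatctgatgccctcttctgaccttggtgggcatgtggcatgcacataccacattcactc

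Both constitutive genes with an entry held the antioxidant response core, TGACGGAGC at -9 in Psmb6 and TGACGTCGC at -47 in Psmb5. The inducible genes held other matches. Psmb8 had the STAT letters TTCCCAGAA at -97, Psmb9 had CCAAT on the other strand at -8, and Psmb10 had no match in its 150 bases.

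The second set is Psme2, which had the highest promoter H3K27ac of all members, and Psma6, Psmd12 and Psme4, which were the highest members in WT with the ETS letters. They lie at chr14:55591022-55591171, minus strand (Psme2, the start nearer the gene body of 2); chr12:55398675-55398824, plus strand (Psma6, the start inside its promoter window); chr11:107479378-107479527, plus strand (Psmd12); and chr11:30771625-30771774, plus strand (Psme4).
Psme2: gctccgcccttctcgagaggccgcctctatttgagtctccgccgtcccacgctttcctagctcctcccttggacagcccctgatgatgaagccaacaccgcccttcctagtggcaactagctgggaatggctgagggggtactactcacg
Psma6: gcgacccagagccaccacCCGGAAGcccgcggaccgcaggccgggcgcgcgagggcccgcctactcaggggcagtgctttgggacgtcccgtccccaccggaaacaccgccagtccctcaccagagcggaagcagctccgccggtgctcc
Psmd12: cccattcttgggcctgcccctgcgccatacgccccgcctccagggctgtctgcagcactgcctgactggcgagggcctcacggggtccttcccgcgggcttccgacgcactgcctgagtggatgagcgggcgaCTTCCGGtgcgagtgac
Psme4: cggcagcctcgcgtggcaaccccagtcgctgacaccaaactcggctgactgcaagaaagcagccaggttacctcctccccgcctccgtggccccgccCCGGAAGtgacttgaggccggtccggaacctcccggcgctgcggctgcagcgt

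Over 38 RefSeq promoters of 300 bp (250 bp before and 50 bp after the start site), found for 35 of the 41 proteasome genes, the ETS letters CCGGAAG were in 14 (36.8%), against 8.86% of all 32851 promoters, 17.7% of the promoters of genes with a promoter window and 35.6% of 73 promoters of cytosolic ribosomal protein genes. The share was thus close to that of another housekeeping family. The letters were in 4 of 6 ATPase promoters and 5 of 8 promoters of cap non-ATPases, in 1 of 7 of the alpha ring, and in 0 of 4 of the beta ring and 0 of 6 of the immunoproteasome and PA28. The ETS match did not go with more H3K27ac among the members: 10 proteasome genes with it had a median promoter signal of 4.74 times input in WT and 18 without it 6.35 times, whereas over all genes the medians were 6.51 with it and 5.05 without. For the antioxidant response core the order was the other way. The 5 proteasome genes with it had medians of 11.9 in WT and 8.27 in KO, against 5.94 and 6.04 without it. Those 5 ran from 2.93 to 14.1 times in WT. Over all genes the WT medians were 6.55 with it and 5.15 without. The antioxidant response core was in 15.8% of member promoters against 12.4% of all, CCAAT in 28.9% against 37.4%, GAAANNGAA in 18.4% against 8.56% (17.8% for the ribosomal protein genes) and TTCNNNGAA in 7.89% against 8.30%. The median ratio of observed to expected CpG in member promoters was 0.731, above the 0.384 of all promoters but below the 0.763 of genes with a promoter window and the 0.862 of ribosomal protein genes. It was 0.523 in the 3 immunoproteasome promoters. A letter match is a description and no evidence of binding.

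The median H3K27ac level of proteasome promoters was close to that of all genes with a promoter window. Not all promoters in that set were shown to be above input. The level is the ratio of group mean CPM (tags scaled to library total) in H3K27ac to that in input, with 0.5 added to both, in the window of each gene with the most tags. The median over 34 proteasome genes was 5.27 times input in WT and 6.37 in KO, against 5.21 and 5.79 over all 10696 genes with a promoter window and 8.62 and 9.64 over 67 cytosolic ribosomal protein genes. Of the 34, 17 lay above the median of all genes in WT and 19 in KO, with 15 above it in both genotypes and 13 below it in both. Between promoters the level ran from 0.985 times input at Psmb8 to 17.1 times at Psme2 in WT. The ratio also moves with the few input tags per window, so its differences between genotypes are not a test of H3K27ac.

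Tested against input with library size set to total tags (edgeR quasi-likelihood, adjusted p under 0.05, here termed called), 34 of 35 tested member promoter windows were called higher in WT, where 99.6% of all tested promoter windows were, and 35 of 35 in KO, against 99.9%. The filter on low counts keeps windows through their H3K27ac tags, so little can be read from those shares. Without the filter 38 of 40 member windows were called in WT, against 73.6% of 13202 promoter windows, and 37 of 40 in KO, against 76.8% of 13204. In the authors' site lists 37 of the 40 member promoter windows (92.5%) were in both the WT and the KO list, against 86.2% of all promoter windows.

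**Figure D1:**
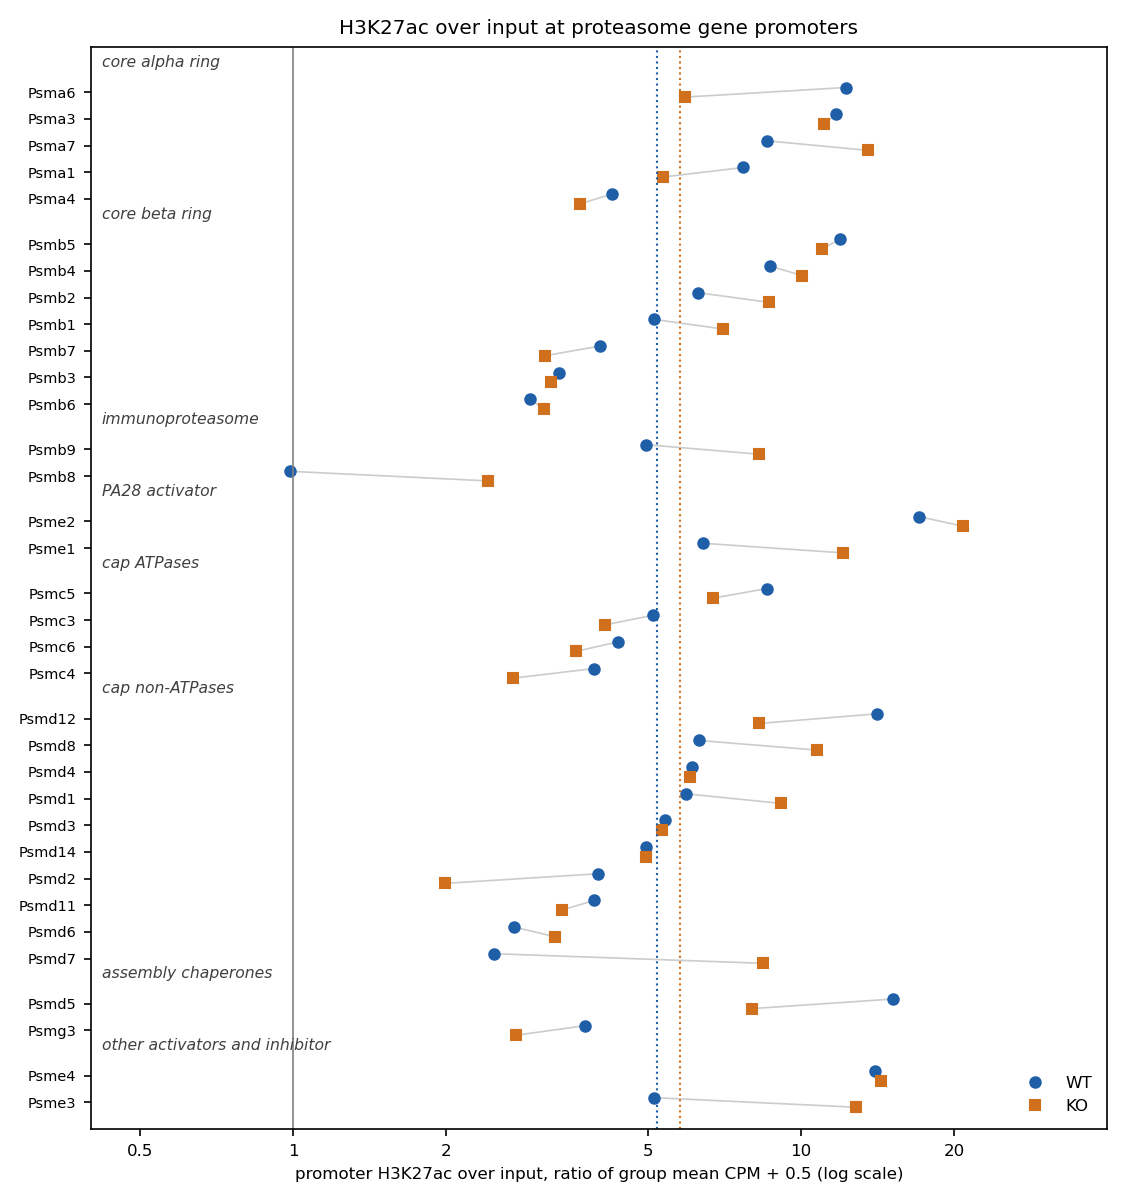
Promoter H3K27ac over input (log axis) of the 34 proteasome genes with a promoter window, by class, as the ratio of group means in WT (circles) and KO (squares), each over 3 H3K27ac and 3 input libraries. Dotted lines are the medians of all genes, 5.21 in WT and 5.79 in KO, and members lie on both sides of them, from 0.985 at Psmb8 to 17.1 at Psme2 in WT.

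In the alpha ring, whose N-termini gate the entrance of the core, 5 of 7 genes had a promoter window, with a median of 8.56 times input in WT and 5.91 in KO. Psma6 was highest in WT at 12.3 times (chr12:55398191-55399191). Its tags were 49, 69 and 100 in WT replicates 1 to 3 and 36, 75 and 41 in KO, so the groups overlapped. Psma4 was lowest at 4.24 times, with 26, 26 and 22 tags in WT and 33, 14 and 16 in KO. Psma5 had only a window 109 bp downstream of its start, at 2.23 times input in WT and 3.95 in KO. Psma2 had no window under its own name, and its start lay in a window annotated to Mrpl32 that stood at 4.20 and 3.18 times. The Psma7 window also holds the start of Ss18l1, 19 bp away, so the tags of that pair cannot be told apart.

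All 7 constitutive beta ring genes had a promoter window, with a median of 5.14 times input in WT and 7.01 in KO. Psmb5 was the highest at 11.9 times in WT and 10.971 in KO (chr14:54617856-54618856). It had 69, 43 and 65 tags in WT and 48, 102 and 76 in KO. Psmb6, the other catalytic gene with the antioxidant response core, was the lowest of the ring at 2.93 and 3.12 times (chr11:70524791-70525791), with 3, 15 and 19 tags in WT and 13, 29 and 37 in KO. Psmb7 stood between them at 4.02 and 3.14 times (chr2:38643489-38644489), with 38, 27 and 25 tags in WT and 19, 27 and 10 in KO. The 3 genes that encode catalytic subunits therefore spanned the whole range of the ring in WT.

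Of the immunoproteasome genes, Psmb9 had the most tags near its start, at a level just below the median of all genes in WT. The Psmb9 promoter window (chr17:34186896-34187896) stood at 4.95 times input in WT and 8.27 in KO, with 25, 32 and 20 tags in WT and 50, 49 and 56 in KO. The KO libraries all lay above the WT libraries there, as in 4.85% of all tested promoter windows. This window holds the start of Tap1 as well, 226 bp from that of Psmb9, so its tags belong to both genes. A second, overlapping Psmb9 promoter window (chr17:34186510-34187510) holds the start of Psmb9 and not that of Tap1. It had 6, 27 and 11 tags in WT and 24, 29 and 26 in KO, and there the groups overlapped (log2 fold change 0.64, SE 0.60). For Psmb8 the window annotated as promoter is centred at -609 from the start and was at the input level in WT, with 1, 5 and 7 tags in WT and 14, 10 and 4 in KO. The Psmb8 window over the first exon (chr17:34197850-34198850) had 4, 20 and 13 tags in WT and 19, 7 and 17 in KO, or 3.42 and 4.44 times input. Psmb10 had only a window over its 5′ untranslated region (chr8:105937644-105938644), with 13, 6 and 2 tags in WT and 10, 18 and 6 in KO, or 1.85 and 2.46 times. Values of a few tags at Psmb8 and Psmb10 fix neither their level nor its direction between genotypes at this depth.

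Within pairs the order of constitutive and inducible gene differed. In every H3K27ac library the Psmb5 window had more CPM than the Psmb8 start window, by a ratio (0.5 CPM added) of 12.1, 2.03 and 4.44 in WT and 2.36, 10.985 and 4.03 in KO. Psmb7 likewise exceeded Psmb10 in all 6, by 2.68, 3.55 and 6.59 in WT and 1.73, 1.44 and 1.47 in KO, ratios that rest on the few Psmb10 tags. Psmb6 was below Psmb9 in all 6, with ratios of 0.181, 0.504 and 0.955 in WT and 0.292, 0.612 and 0.675 in KO. The ratios are a description, since windows of different genes differ in how well they cover a marked region.

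**Figure D2:**
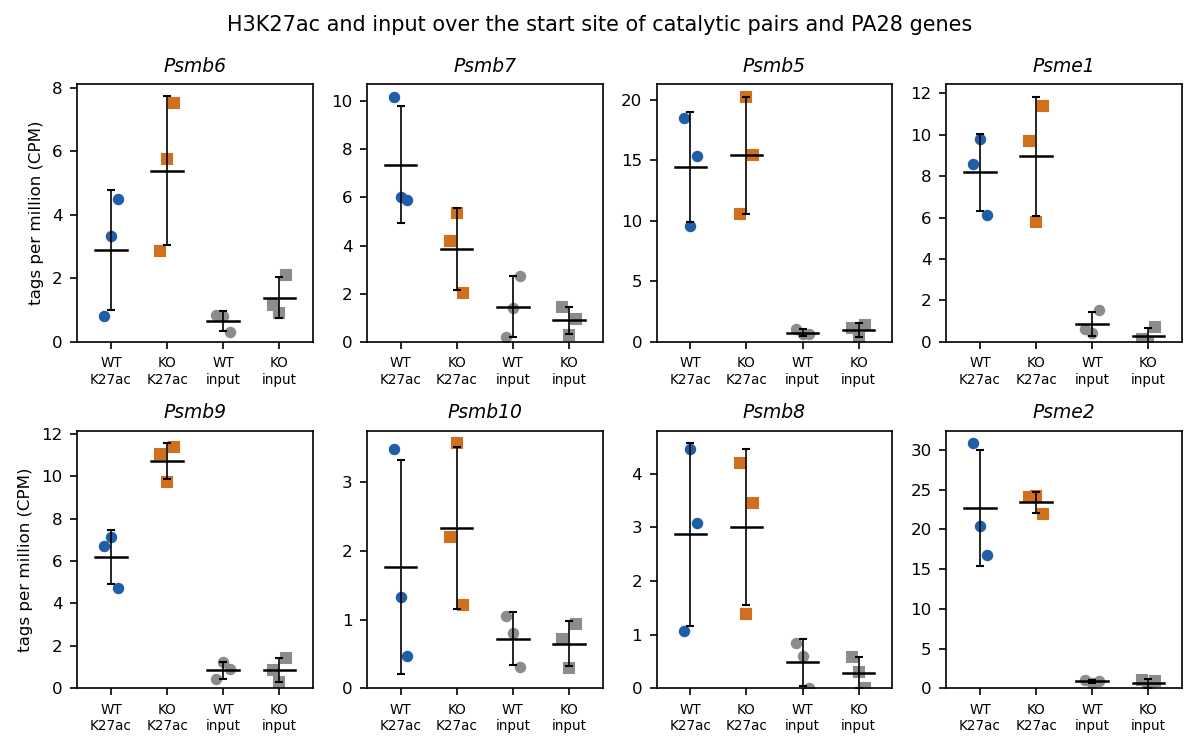
CPM in the window over the start site with the most tags for the 3 catalytic pairs (constitutive above, inducible below) and for Psme1 and Psme2, with 1 point per library, the mean and the SD (n = 3), for H3K27ac and input. Psmb9 is the panel in which the KO libraries all exceed the WT libraries, and Psmb10 and Psmb8 stay below 5 CPM.

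Of the PA28 activator genes, induced with the immunoproteasome, Psme2 was among the more strongly marked members in both genotypes. Psme2 stood at 17.1 times input in WT and 20.8 in KO (chr14:55590606-55591606), above 91.8% of all promoter windows in WT. Its tags were 115, 92 and 71 in WT and 109, 122 and 108 in KO. Psme1 stood at 6.41 and 12.1 times (chr14:55577979-55578979), above 57.2% of all promoter windows in WT. It had 32, 44 and 26 H3K27ac tags in WT and 44, 29 and 56 in KO. Its input tags were 3, 2 and 5 in WT and 1, 0 and 3 in KO. The H3K27ac groups overlapped for both genes. Psme4, the activator PA200, stood at 14.0 and 14.4 times, with 48, 41 and 80 tags in WT and 74, 99 and 44 in KO. Psme3, the nuclear relative of PA28, was lower in WT at 5.13 times and stood at 12.8 in KO, with 41, 64 and 51 tags against 80, 74 and 58. Its input tags were 9, 7 and 9 in WT and 2, 2 and 5 in KO. No window lay over the start of Psmf1, the inhibitor PI31.

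The median of 14 cap promoters was 5.03 times input in WT and 5.15 in KO, below the medians of 12 core promoters, 6.99 and 6.46. Within 1 kb of the start site, where 13 core and 14 cap genes have a window, the cap to core ratio of medians was 0.767, 0.714 and 0.853 in WT replicates 1 to 3 and 0.650, 1.16 and 0.849 in KO. KO replicate 2 thus reversed the order. Among the 4 ATPases with a promoter window, Psmc5 was highest at 8.56 times in WT, with 32, 59 and 50 tags against 64, 49 and 20 in KO, and its window also holds the start of Ftsj3, 101 bp away. Psmc4 was lowest at 3.91 times, with 9, 33 and 16 tags against 15, 40 and 22. Psmc1 and Psmc2 had no promoter window under their own names. The window over the RefSeq start of Psmc1 had 22, 21 and 31 tags in WT and 32, 57 and 60 in KO, or 3.35 and 8.42 times input, and a window in the 5′ untranslated region of Psmc2 stood at 8.69 and 12.1 times.

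Among 10 non-ATPases of the cap, Psmd12, a subunit of the lid, was highest in WT at 14.1 times input (chr11:107478963-107479963). In KO it stood at 8.27 times, below Psmd8, Psmd1 and Psmd7. Its tags were 56, 40 and 50 in WT and 36, 46 and 28 in KO. Psmd7, the partner of the deubiquitinase Psmd14, was lowest in WT at 2.49 times but stood at 8.41 times in KO. Its H3K27ac tags were 20, 40 and 12 in WT and 44, 50 and 31 in KO, so the groups overlapped on CPM as well. Input tags in that window were 10, 7 and 8 in WT and 6, 3 and 0 in KO, and the ratio moves with them. Psmd14 itself stood at 4.95 and 4.96 times. The scaffold subunits Psmd1 and Psmd2 stood at 5.94 and 3.99 times in WT. Psmd13 had no window of its own, and its start lay in a window annotated to Sirt3 at 4.38 and 5.19 times.

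Of 7 assembly chaperones, which build the core and cap and then leave, 2 had a promoter window. Psmd5 stood at 15.2 times input in WT and 7.99 in KO (chr2:34870528-34871528), with 60, 67 and 103 tags in WT and 58, 60 and 66 in KO, so that every KO library was below every WT library on CPM. Psmg3 stood at 3.76 and 2.74 times (chr5:139826393-139827393), with 13, 23 and 27 tags in WT and 12, 7 and 9 in KO, and here too the KO libraries were lower on CPM. Of all tested promoter windows, 4.76% had every KO library below every WT library. Psmg1, Psmg4 and Psmd9 had only windows inside the gene near the start, with log2 fold changes of -1.07 (SE 0.64), 0.35 (SE 0.35) and 0.56 (SE 0.73). Psmd10 had a start in a window annotated to Atg4a at 2.70 and 2.68 times. Psmg2 and Psma8 had no entry in the promoter table, and no window lay over the start of the thymus gene Psmb11.

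No proteasome promoter differed between genotypes past the threshold. In the edgeR quasi-likelihood test of KO against WT, 0 of 39 tested member promoter windows were called, as were 0.0287% of 10452 tested promoter windows. At an unadjusted p under 0.05 there was 1 of 39 (2.56%), against 3.66% of all, and DESeq2 called 0 of the 39, and 11 of the 10452, with 3 and 604 at an unadjusted p under 0.05. The KO libraries were all above WT in 3 of the 39 windows, at Psma7, Psmb9 and the second Psme3 promoter window (4.85% of all tested). They were all below WT in 4, at Psmd5, Psma1, Psmb7 and Psmg3 (4.76% of all). The median log2 fold change was 0.13 over the 39 windows, 25 of them (64.1%) above 0. Over all tested promoter windows it was -0.0043, with 49.6% above 0. Standard errors of the members ran from 0.26 to 0.73 on the log2 scale, and even changes of about 2 SE, as at Psma6 and Psmg3, did not pass the adjusted threshold.

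The window with the smallest p among the promoters was that of Psma6, with a log2 fold change of -0.74 (SE 0.34, unadjusted p = 0.0373, edgeR adjusted p = 0.998), and -0.49 without WT replicate 3. Psmb9 followed at 0.80 (SE 0.40, adjusted p = 0.998), and it was 0.83 without WT replicate 1. Psmg3 was at -1.35 (SE 0.68) and Psmb7 at -0.94 (SE 0.52), with the same adjusted p. The Psmb7 and Psmg3 libraries did not overlap between groups on CPM. Psmb5, Psme1 and Psme2 were near 0, at 0.12, 0.15 and 0.06, and Psmb6 was at 0.92 (SE 0.66) on few tags, or 0.48 without WT replicate 1 and 0.49 without KO replicate 3.

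Summed over all windows within 100 kb of the start site, 0 of 42 member genes were called by edgeR or by DESeq2, against 0.206% of 12148 genes, and 0 had an unadjusted p under 0.05 in either, against 5.77% of all genes in edgeR. Of the 41 proteasome genes 24 had a positive and 17 a negative log2 fold change, with a median of 0.06 against 0.0013 over all genes and an adjusted p of 0.877 or more. The KO libraries were all above WT in 3 genes, Psma7, Psmb3 and Psmd1 (4.78% of all genes), and all below in 4, Psma6, Psmc3, Psmd5 and Psmg1 (4.85%). By class, 8 of 13 core genes, 9 of 16 cap genes, 3 of 3 immunoproteasome genes and 1 of 2 PA28 genes were positive. Of all tested genes 50.2% were positive, and 3 genes are too few to give a class a direction. The immunoproteasome values were 0.32 for Psmb8, 0.42 for Psmb9 and 0.35 for Psmb10, with SEs of 0.63, 0.31 and 0.74, so none exceeded its error by much. Without WT replicate 1 the Psmb8 value was -0.084, and without WT replicate 3 the Psmb9 value was 0.18.

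Psmb6 had the smallest p of the member genes. Its sums were 5, 17 and 19 tags in WT and 18, 29 and 58 in KO, a log2 fold change of 1.19 (SE 0.60, unadjusted p = 0.0553, edgeR adjusted p = 0.877) on overlapping groups. It was 0.52 without KO replicate 3 and 0.82 without WT replicate 1. Psma6 had 88, 111 and 134 tags in WT and 83, 110 and 74 in KO, a log2 fold change of -0.54 (SE 0.28, adjusted p = 0.892), and its KO libraries were all lower on CPM. Psmg3 stood at -0.95 (SE 0.56) with 14, 37 and 34 against 18, 14 and 18 tags. Psmd12 stood at -0.44 (SE 0.27) with 189, 105 and 155 against 164, 102 and 120 tags, and at -0.16 without WT replicate 1 and -0.25 without KO replicate 2. The chaperones of the core lay on both sides, from -1.06 for Psmg1 to 0.25 for Psmg4.

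**Figure D3:**
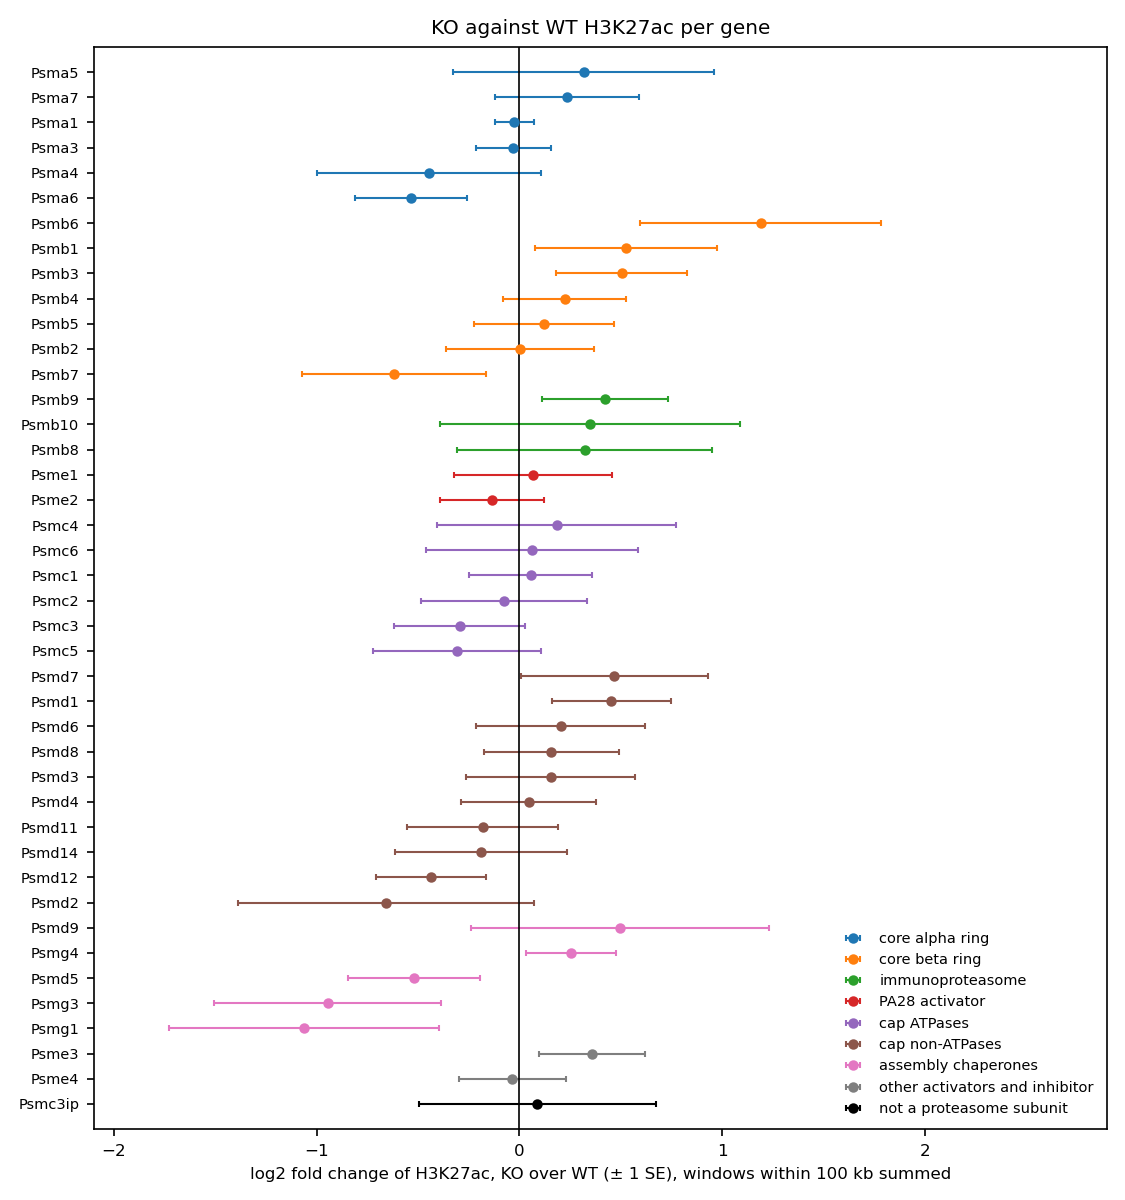
Log2 fold change of H3K27ac, KO over WT, for the 42 member genes (windows within 100 kb summed), with bars of 1 SE from the edgeR fit of 3 against 3 libraries. Values run from -1.06 at Psmg1 to 1.19 at Psmb6, and no gene passed the adjusted threshold.

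Beyond 1 kb, 67 windows were annotated to 27 member genes, with a median of 2.68 times input in WT and 2.91 in KO, against 2.33 and 2.52 over all windows at that distance. The member medians include 11 windows of Psma1, all of them above these medians, and windows over RefSeq starts of Psmc1 and Psmc2. They therefore do not give the distal level of the other members, and no median without Psma1 was taken. The Psma1 windows lay from 15.6 to 41.5 kb upstream, at 5.79 to 22.9 times input in WT and 5.04 to 23.8 in KO. In 9 of the 11 every library had more tags than either Psma1 promoter window. Of 10 distal member windows above 10 times input in WT, 9 were these. The window at -16700 (chr7:114292316-114293316) had 187, 139 and 121 tags in WT and 110, 141 and 172 in KO. The window at -40496 (chr7:114316112-114317112) had 175, 139 and 194 against 204, 199 and 162. The promoter windows of Psma1, by contrast, stood at 7.70 and 4.76 times in WT. Through these windows the Psma1 sum had 93.5% of its tags beyond 1 kb, and its log2 fold change was -0.02 (SE 0.10). Several of the 11 windows overlap, so they form fewer separate stretches and the sum counts shared tags more than once. Windows are assigned to the nearest start site, so these are sites near Psma1 and need not act on it.

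**Figure D4:**
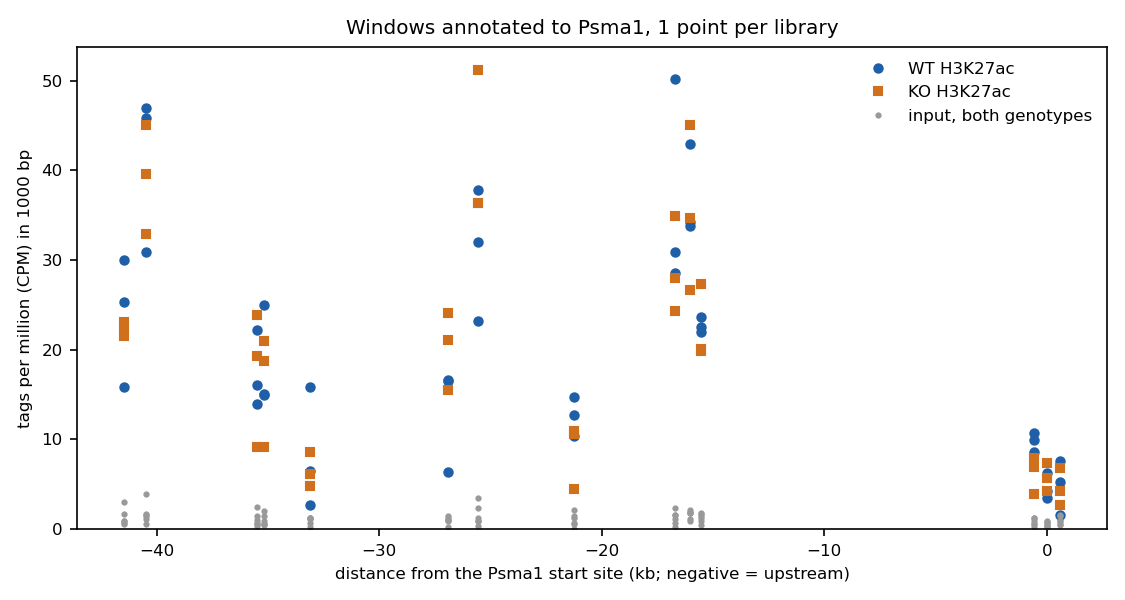
CPM in each 1000 bp window annotated to Psma1 by distance from its start site in kb, 1 point per library. The upstream windows between 15.6 and 41.5 kb reach higher H3K27ac than the windows at the start in both genotypes, and input stays low throughout.

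Of all 86 member windows tested, 0 were called by edgeR, as were only 0.059% of the 40370 windows tested in the whole table. An unadjusted p under 0.05 was found in 2 of the 86, against 3.66% of promoter windows alone. The smallest p was that of a distal window 22.9 kb upstream of Psmc1 (chr12:100088931-100089931). It had 14, 16 and 64 tags in WT and 18, 11 and 4 in KO, a log2 fold change of -1.70 (SE 0.65, unadjusted p = 0.0150, edgeR adjusted p = 0.998). The WT mean rested on replicate 3, and without it the value was -0.72.

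None of the genes that work with the proteasome was called. Of 24 proteasome regulators and ubiquitin shuttle genes, 0 were called by edgeR, as were only 0.206% of all tested genes. An unadjusted p under 0.05 was found for 0 of them, against 5.77% of all, with 12 positive and 12 negative. Their promoters had a higher median than those of the subunits, 9.63 times input in WT and 9.77 in KO. They ran from 2.10 to 33.1 times in WT. Nfe2l1, the factor that induces subunit genes when proteasome activity falls, stood at 18.036 and 14.1 times, and Nfe2l2, the oxidative stress factor, at 27.6 and 14.9. Ubqln4, a shuttle of ubiquitinated proteins, had the smallest p in this list, with 42, 56 and 117 tags in WT and 55, 55 and 41 in KO (log2 fold change -0.71, SE 0.37, adjusted p = 0.892).

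Of 12 tested genes of antigen processing and MHC class I, 0 were called by edgeR and 0 had an unadjusted p under 0.05. Over all tested genes the shares were 0.206% and 5.77%. The median of their promoters was 11.8 times input in WT and 11.9 in KO, with B2m, the light chain of MHC class I, at 29.5 and 35.4 and Tap1 at 4.74 and 6.74. The Tap1 sum had a log2 fold change of 0.71 (SE 0.48). Calr, a chaperone of MHC class I assembly, had the smallest p, at -0.51 (SE 0.32, adjusted p = 0.922). Of 20 tested genes of the interferon response, which drives the immunoproteasome, 0 were called by edgeR and 3 (1 higher, 2 lower) had an unadjusted p under 0.05, where 5.77% of all genes did. Rsad2, an antiviral enzyme, had 8, 2 and 3 tags in WT and 29, 21 and 38 in KO (log2 fold change 2.51, SE 0.76, adjusted p = 0.379). Isg15, the ubiquitin-like modifier, had 36, 86 and 58 in WT and 36, 35 and 27 in KO (-1.08, SE 0.40, adjusted p = 0.624), and Irf8, a macrophage factor, was at -0.26 (SE 0.12, adjusted p = 0.815).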

How the data were processed

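H3K27ac and input chromatin were measured in 12 libraries, grouped by the genotype, antibody and title labels. The authors deposited raw tag counts per window and library, with no normalization, per the file headers. These name HOMER annotatePeaks on mm10 and windows of 1000 bp merged from WT and KO site lists. HOMER, mm10 and DESeq2 also appear in the submitters' processing notes, without versions. How reads were aligned and duplicates treated is not stated there. A total of 14856 windows overlap the one before and share tags with it. A promoter window is one the table annotates as promoter-TSS, and a gene is the one whose start is nearest.

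Members and gene lists were chosen with earlier results of these data known. KO was compared with WT in edgeR 4.0.16 (R 4.3.3; TMM, filterByExpr, quasi-likelihood, no covariate, Benjamini-Hochberg over all windows or genes, threshold 0.05), for windows and for sums within 100 kb of the start site. H3K27ac was compared with input on total tags without TMM. Each standard error is the size of the log2 fold change divided by the root of its F statistic. The code was tested on simulated counts. Alternatives were DESeq2 1.42.0, other scaling, no filter, a replicate block, left-out libraries, a distance of 1 kb and pseudocounts of 0.1 and 1 CPM. Genes were named by rule: catalytic pairs, Psme1 and Psme2, the highest and lowest promoter of each class in WT, called members and the 4 with the smallest p in each test. In other lists the rule named called genes and the smallest p, and further genes named there, as well as class members outside these rules, were picked after their values were seen. Tag counts have no molecular identifiers. All value columns were mapped to samples.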

Additional observations from a re-analysis of the deposited data

How the results depend on the processing

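No member promoter window and no member gene was called under any alternative run, at unadjusted counts of 0 to 3 of the promoter windows. Over all promoter windows, the count of 3 called became 11 with DESeq2, 13 with no low-count filter and 5 with the replicate block, and ranged from 1 to 7 when 1 library was left out (1 without WT replicate 1, 1 without KO replicate 1, 7 without KO replicate 3). Over all genes, 25 became 48 with no low-count filter, 15 with the replicate block, 16 with total-tag scaling and 1 within 1 kb, and ranged from 8 (without WT replicate 1) to 18 when 1 library was left out. Same-numbered libraries did not pair: their deviations from the group means correlated at 0.0033, -0.0006 and 0.0025, and the replicate block changed no member call. Over input, TMM scaling, which centres the difference on the windows themselves, reduced the member windows called to 2 in WT and 2 in KO.

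A pseudocount of 0.1 CPM raised the medians over input, and 1 CPM lowered them, to 9.09 and 5.54 (core), 6.79 and 3.82 (cap), 7.64 and 4.41 (immunoproteasome and PA28) and 7.28 and 4.41 (all members) in WT. In KO they were 8.29 and 5.17, 7.18 and 3.94, 17.5 and 7.03, and 8.66 and 5.05. With 1 replicate number left out, the WT immunoproteasome and PA28 median ranged from 4.94 to 7.55 and the KO core median from 6.01 to 8.64. Counting any window within 1 kb, an alternative added after seeing the data, moved no median beyond the spread between libraries. Of 20 named fold changes 12 kept their sign under every alternative. With 1 library left out, the others changed sign. For sums, the values ranged from -0.076 (without KO replicate 2; also below 0 without WT replicate 2) to 0.36 for Psmb5, from -0.084 (without WT replicate 1) to 0.74 for Psmb8, from -0.20 (without KO replicate 2) to 0.83 for Psmb10, from -0.25 (without KO replicate 3; also below 0 without WT replicate 1 or 3) to 0.35 for Psme1, and from -0.25 to 0.12 (without WT replicate 1) for Psme2. For promoter windows, they ranged from -0.071 (without WT replicate 2; also below 0 without KO replicate 2) to 0.36 for Psmb5, from -0.17 (without KO replicate 3; also below 0 without WT replicate 3) to 0.41 for Psme1, and from -0.14 (without WT replicate 3) to 0.30 for Psme2. The cause was not tested. No named value was called under an alternative, and the lowest adjusted p was 0.484.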
